A study of Mus musculus with 10 samples.

Results

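The RNA of 10 circadian clock genes (Arntl, Clock, Cry1, Per1, Per2, Per3, Nr1d1, Nr1d2, Dbp and Tef) was followed in keratinocytes of mouse back skin epidermis, as a check of clock phase between the groups of the study. The genes were taken by name, 10 of the 17983 genes listed in at least 1 library, and all 10 were listed in every library and passed the filter on low values (at least 2 libraries at 10 or above). Control mice were labelled wild type, and the other mice Gsdma1KO/KO;Gsdma3fx/fx;K14-Cre, called knockout here: a Gsdma1 knockout with a floxed Gsdma3, and a Cre recombinase under the keratin 14 promoter, which is active in basal keratinocytes of the epidermis and hair follicle. Back skin of both genotypes was rubbed 2 times daily over 3 days with water or with acetone and olive oil (4 parts to 1), and the titles give day 5. There were 3 control and 3 knockout libraries under olive oil/acetone and 2 control and 2 knockout libraries under water. The labels give neither the time of day of collection nor the age or sex of the mice, nor whether the libraries are separate animals, and the p-values therefore speak only of the spread among libraries, which could be technical.

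The circadian clock is a feedback loop of transcription. ARNTL (BMAL1) pairs with CLOCK or NPAS2 and switches on the genes of its own repressors, the PER and CRY proteins, and of the nuclear receptors NR1D1 and NR1D2 (REV-ERBs), which in turn repress Arntl. DBP and TEF are transcription factors of the PAR bZIP family whose RNA is driven by the loop, and Dbp RNA normally peaks at a time of day when Arntl RNA is low. The epidermis has such a clock, and it is known for timing keratinocyte division. The RNA was taken after the epidermis had been separated with dispase and the keratinocytes freed with trypsin.

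Recovered depth was 15914663 to 21812292 reads per library, and levels are given as normalised read counts. Gsdma3, 1 of the targeted genes, lay between 62.5 and 283 in the control libraries and between 0 and 2.65 in the knockout libraries, while Gsdma, the gene named Gsdma1 in the labels, was read in both genotypes (200 to 732 in control, 170 to 843 in knockout). Keratinocyte genes dominated as the label says: the summed level of the 4 basal genes (Krt5, Krt14, Col17a1, Itga6) was 469606 to 798328. Control water replicate 2 stood apart in the 5 hair shaft and inner root sheath genes (Krt71, Krt27, Krt25, Krt35, Tchh), with a summed level of 10182 against 117 to 2145 in the other 9 libraries. The 4 Y-linked genes Ddx3y, Eif2s3y, Uty and Kdm5d were at 0 in all 4 water libraries and summed to 3583 to 4967 in all 6 olive oil/acetone libraries. Treatment and the sex of the mice therefore cannot be told apart in any treatment comparison below. In bulk libraries, fewer cells of a type and less RNA per cell cannot be told apart either.

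Promoter sequences from RefSeq (GRCm38.p6) are shown for Cry1, Arntl and Per3. Log2 levels of Cry1 and Arntl had r = 0.968 over the 10 libraries, and those of Per3 and Dbp r = 0.831. For deviations from the group means these r were 0.945 and 0.612. Whether the marked elements act on these RNA levels was not tested. Each sequence is the stretch before the gene's start, 5′ to 3′. Capitals mark an E-box (CACGTG, the element bound by CLOCK and ARNTL) in Cry1 and 2 D-boxes (TTANGTAA, the element bound by DBP and TEF) in Per3. The Arntl and Per3 stretches have 250 bases; that of Cry1 was cut by the 10 bases next to its RefSeq start, which the GENCODE annotation places inside the gene, and has 240.
Cry1 (chr10:85185065-85185304, minus strand): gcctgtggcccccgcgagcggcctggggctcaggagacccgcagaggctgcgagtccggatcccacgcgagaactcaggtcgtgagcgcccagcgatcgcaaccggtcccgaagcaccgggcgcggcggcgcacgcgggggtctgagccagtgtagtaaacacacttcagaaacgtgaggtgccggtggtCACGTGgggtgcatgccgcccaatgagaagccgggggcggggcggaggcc
Per3 (chr4:151044666-151044915, minus strand): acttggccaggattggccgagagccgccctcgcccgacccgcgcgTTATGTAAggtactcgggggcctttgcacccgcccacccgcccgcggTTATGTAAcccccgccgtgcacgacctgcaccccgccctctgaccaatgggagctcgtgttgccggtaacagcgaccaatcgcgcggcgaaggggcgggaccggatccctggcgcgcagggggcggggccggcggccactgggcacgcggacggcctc
Arntl (chr7:113207215-113207464, plus strand): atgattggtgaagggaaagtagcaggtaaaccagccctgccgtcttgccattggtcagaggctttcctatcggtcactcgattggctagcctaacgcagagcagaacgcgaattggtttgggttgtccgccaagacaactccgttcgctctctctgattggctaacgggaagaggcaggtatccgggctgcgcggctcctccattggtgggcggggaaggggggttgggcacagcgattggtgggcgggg
The 250 bases before the start were searched on both strands for the E-box, the D-box, the element TAGGTNA bound by REV-ERB receptors and the cyclic AMP element TGACGTCA. RefSeq windows were found for 9 of the 10 genes, all but Per2. The E-box was present in 3 of the 9 (Cry1, 60 bases before the RefSeq start, Per1 and Tef) and in 6.86% of all 27025 genes searched. The D-box was present in 1 of the 9 (Per3, 205 and 158 bases before the start) and in 2.44% of all genes. The REV-ERB element (8.34% of genes) and the cyclic AMP element (1.77%) were in none of the 9. Elements farther away, across the start or inside the gene lay outside these 250 bases and were not searched. Their absence here does not show that a gene, Arntl included, lacks them. The E-box and the cyclic AMP element share their inner letters ACGT.

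Levels of different genes were compared per kilobase of exon. Per1 was highest, at 1477 ± 211 normalised counts per kilobase (SD over 10 libraries), followed by Nr1d1 (1205 ± 266), Nr1d2 (386 ± 62.8), Cry1 (313 ± 180), Tef (295 ± 71.8), Dbp (165 ± 72.8), Arntl (150 ± 45.9), Clock (118 ± 27.0), Per2 (51.9 ± 18.4) and Per3 (42.9 ± 13.6). Between neighbours in this order the ranges over libraries overlapped, except that every library of Nr1d1 (901 or more) lay above every library of Nr1d2 (458 or less). The steady genes were Per1, whose highest library was 1.63 times its lowest, Nr1d2 (1.87) and Nr1d1 (1.92). The most variable were Cry1 (5.81 times), Dbp (4.53) and Per2 (4.26). The Per2 ratio rested on its lowest library, control water replicate 2 (18.6 normalised counts per kilobase). The next lowest Per2 library was knockout olive oil/acetone replicate 2 (31.7), and the highest was at 79.1.

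**Figure D1:**
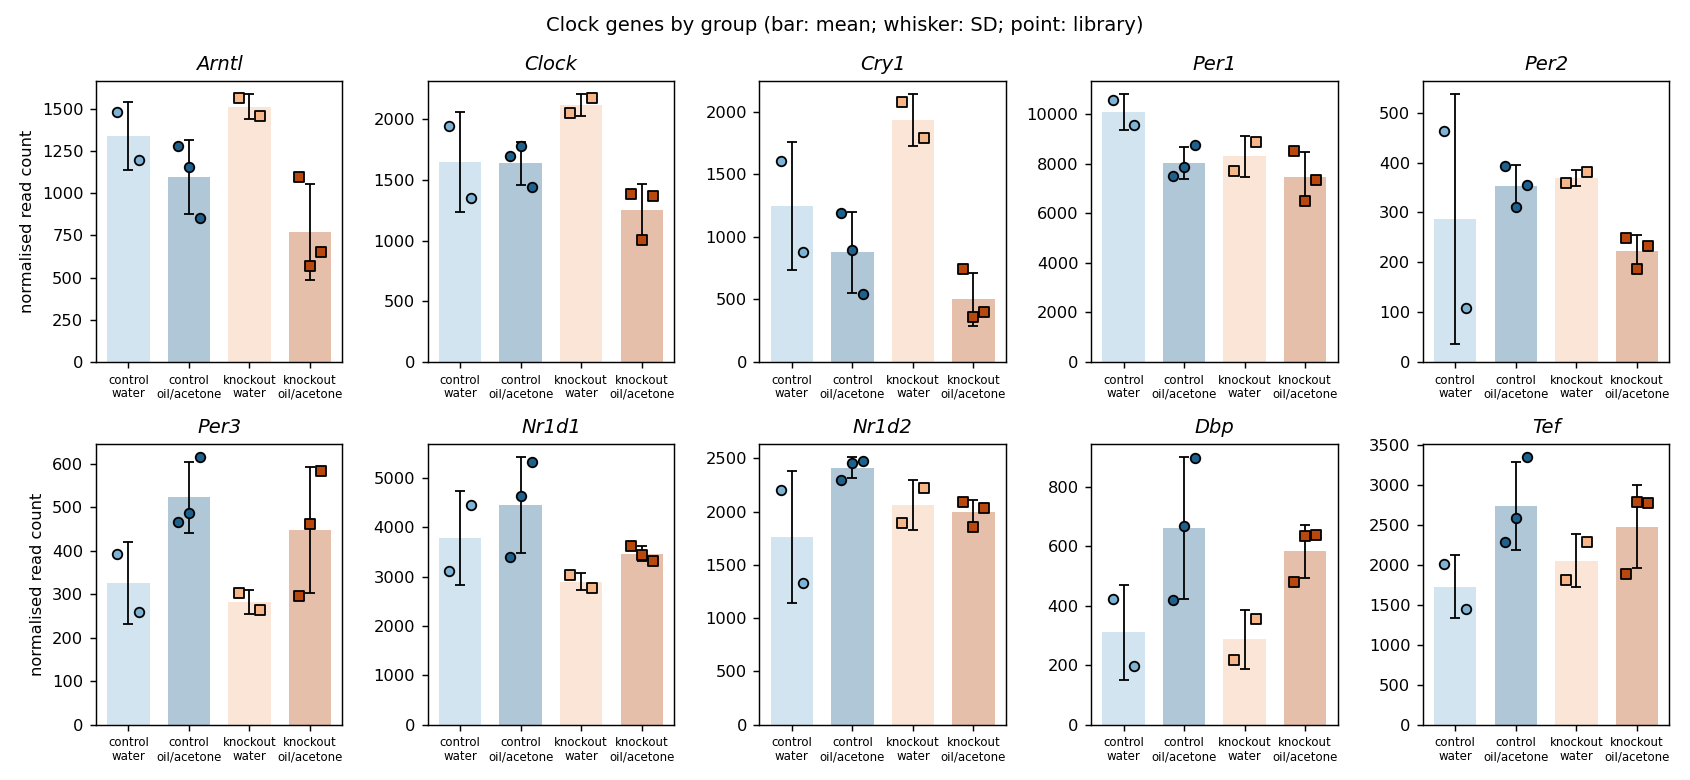
Normalised read count (vertical axis, from 0) of each of the 10 clock genes in the 4 groups; points are libraries, bars are group means and whiskers are SD. The group means of Arntl, Clock and Cry1 are lowest in knockout under olive oil/acetone, though single libraries overlap with control. Cry1 lies there between 357 and 743 against 1786 and 2077 in knockout under water, and Per2 has 1 low library (109) in control under water.

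The treatment comparison in knockout asked whether skin under olive oil/acetone and under water stood at the same clock state in the knockout mice. Cry1, Arntl and Clock fell under olive oil/acetone, and no clock gene rose past the test. limma, fitted on log2(value + 1) over all genes with Benjamini-Hochberg adjustment, called 3 of the 10 genes at an adjusted p under 0.05, all lower, against 13.4% of all 15958 genes in either direction and 6.69% lower. Of all calls 50.2% were higher, and 61.4% with library totals set equal. The median log2 difference of the 10 genes was -0.10, and that of all genes 0.0090. The libraries of the 2 groups did not overlap for 6 of the 10 genes, against 57.9% of all genes.

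Cry1 (chromosome 10, 85131700 to 85185064), which encodes a repressor of CLOCK and ARNTL, changed most. Its level was 2077 and 1786 in the knockout water libraries and 743, 357 and 397 in the knockout olive oil/acetone libraries, so the groups were far apart and olive oil/acetone replicate 1 was the highest of its group. The log2 difference was -2.02 ± 0.39 (SE; limma adjusted p = 0.0166), a ratio of 0.246. Arntl (chromosome 7, 113207465 to 113314126), the activator of the loop, was 1564 and 1460 under water and 1098, 569 and 649 under olive oil/acetone, again with replicate 1 nearest to the water libraries. It fell by 1.03 ± 0.27 on the log2 scale (limma adjusted p = 0.0373). Clock (chromosome 5, 76209868 to 76304792), the partner of ARNTL, was 2055 and 2180 under water and 1386, 1005 and 1368 under olive oil/acetone, without overlap, and fell by 0.77 ± 0.20 (limma adjusted p = 0.0356). All 3 calls were lost without knockout olive oil/acetone replicate 2 or 3 or without either knockout water library (adjusted p 0.0523 to 0.143 for Cry1, 0.108 to 0.207 for Arntl and 0.0762 to 0.191 for Clock), though the log2 differences stayed within -2.35 to -1.81, -1.31 to -0.84 and -0.85 to -0.62 over all 20 alternatives. The calls of Arntl and Clock were also lost without control olive oil/acetone replicate 2 (adjusted p = 0.0618 and 0.0587), and that of Clock with library totals set equal (0.0533).

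The other 7 genes did not pass the limma test in knockout. Dbp, an output gene of the loop, was 217 and 356 under water and 481, 633 and 638 under olive oil/acetone, without overlap, and its log2 difference was 1.06 ± 0.38 (adjusted p = 0.0806; 0.0200 to 0.415 over alternatives, 5 of 20 calling it). Per2, a PER repressor, was 358 and 381 under water and 249, 186 and 232 under olive oil/acetone, also without overlap (log2 difference -0.74 ± 0.46, adjusted p = 0.268; 4 of 20 alternatives called it). Per3, a PER protein with a lesser role in the loop, had a log2 difference of 0.61 ± 0.29 (adjusted p = 0.161). Per1 (-0.16), Tef (0.26) and the REV-ERB genes Nr1d1 (0.26) and Nr1d2 (-0.04) had adjusted p of 0.394 to 0.888. The direction of Nr1d2 was not stable: with library totals set equal it was 0.079.

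Genes of other cells moved with this comparison. All 5 red blood cell genes measured (Hbb-bs, Hbb-bt, Hba-a1, Hba-a2, Alas2) rose in knockout, their summed level being 1176 and 2544 under water and 14407 to 27549 under olive oil/acetone. The 5 hair shaft genes summed to 170 and 179 under water and 249, 2145 and 685 under olive oil/acetone, with 0 of 5 passing the test. All 4 endothelial genes had positive differences (median 1.35), and only Pecam1 passed the test (log2 difference 1.74, adjusted p = 0.0406). Their summed level went from 66.2 and 180 to between 271 and 392. Cdh5, which defines that cell type, was at 0 in knockout water replicate 1. Of the suprabasal genes Krt1, Krt10, Ivl and Lor, Krt1 rose (1.92, adjusted p = 0.0164), and their sum went from 196150 and 215618 to between 272223 and 544103. Of the 5 fibroblast genes (Col1a1, Col1a2, Col3a1, Dcn, Lum) all had negative differences (median -0.65) and Lum fell (adjusted p = 0.0379), with sums of 4456 to 7366 under water and 2132 to 5306 under olive oil/acetone. Of the 4 basal genes none passed, and their differences split, 2 positive and 2 negative. Their sum was 535071 and 497288 under water and 798328, 469606 and 475457 under olive oil/acetone. Krt14 had a higher mean under olive oil/acetone (247171) than under water (165693). Itga6, on the negative side, was 18571 and 18451 under water and 17339, 6982 and 9389 under olive oil/acetone. The part of these cells in the differences of the clock genes was not tested.

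In control mice the same treatment comparison gave no clock gene past the limma test (0 of 10, against 0.0627% of all genes), and edgeR and DESeq2 on the recovered reads also called 0 of 10. At an unadjusted p under 0.05 there were 4 genes, Per3, Nr1d2, Dbp and Tef, all higher under olive oil/acetone, against 12.9% of all genes. The groups did not overlap for 4 of 10 genes (Per1, Per3, Nr1d2 and Tef), against 24.2% of all genes. The median log2 difference was 0.36, and that of all genes 0.00042.

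Dbp (chromosome 7, 45705088 to 45710203) was 423 and 198 in the control water libraries and 420, 669 and 896 in the control olive oil/acetone libraries, overlapping by a few counts, with a log2 difference of 1.12 ± 0.38 (adjusted p = 0.276). Tef, its relative in the PAR bZIP family, was 2008 and 1447 under water and 2286, 2587 and 3354 under olive oil/acetone, without overlap (0.67 ± 0.24, adjusted p = 0.291). Per3 was 392 and 260 under water and 466, 487 and 615 under olive oil/acetone, again without overlap (0.70 ± 0.29, adjusted p = 0.351). In each of these 3 genes olive oil/acetone replicate 3 was the highest and water replicate 2 the lowest of the 5 control libraries. Arntl, at 1483 and 1197 under water and 1279, 1157 and 850 under olive oil/acetone, overlapped between the treatments (-0.30 ± 0.27, adjusted p = 0.666). Cry1 was 1606 and 881 under water and 1189, 892 and 543 under olive oil/acetone, and overlapped too (-0.52 ± 0.39, adjusted p = 0.602).

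Per2 rested on 1 library in control. It was 463 and 109 under water and 393, 312 and 355 under olive oil/acetone, a log2 difference of 0.64 ± 0.46 (adjusted p = 0.575). Without control water replicate 2, the library with the high hair shaft genes, the difference was -0.39, and without control water replicate 1 it was 1.68. The low value came from 116 reads. Clock differed by 0.0090 ± 0.20 (adjusted p = 0.991), with a 95% interval of -0.43 to 0.45, and its sign changed with the scaling and the tool (-0.028 with library totals set equal, -0.012 with edgeR). Per1, the most abundant of the 10, was 10578 and 9558 under water and 7503, 7855 and 8736 under olive oil/acetone (-0.33 ± 0.16, adjusted p = 0.416), Nr1d2 differed by 0.49 ± 0.20 (adjusted p = 0.332) and Nr1d1 by 0.23 ± 0.21 (adjusted p = 0.664).

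No marker of another cell type passed the test in control, and the values of the lists were as follows. The 4 skeletal muscle genes (Acta1, Ckm, Myh4, Tnnt3) were all lower under olive oil/acetone without overlap (median log2 difference -2.18, summed level 245 to 638 under water and 71.7 to 140 under olive oil/acetone), and all 4 had an unadjusted p under 0.05. The same held for the p-values of the 4 epidermal T cell genes (Cd3e, Cd3g, Trdc, Xcl1; median -1.16, sums of 6792 to 11793 and 2622 to 6936). Of all genes, 24.2% did not overlap and 12.9% had an unadjusted p under 0.05. The suprabasal genes summed to 140664 to 171565 under water and 233004 to 369910 under olive oil/acetone, without overlap, and the red blood cell genes to 3321 to 6497 and 4427 to 13396. The part of these cells in the values of the clock genes was not tested.

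**Figure D2:**
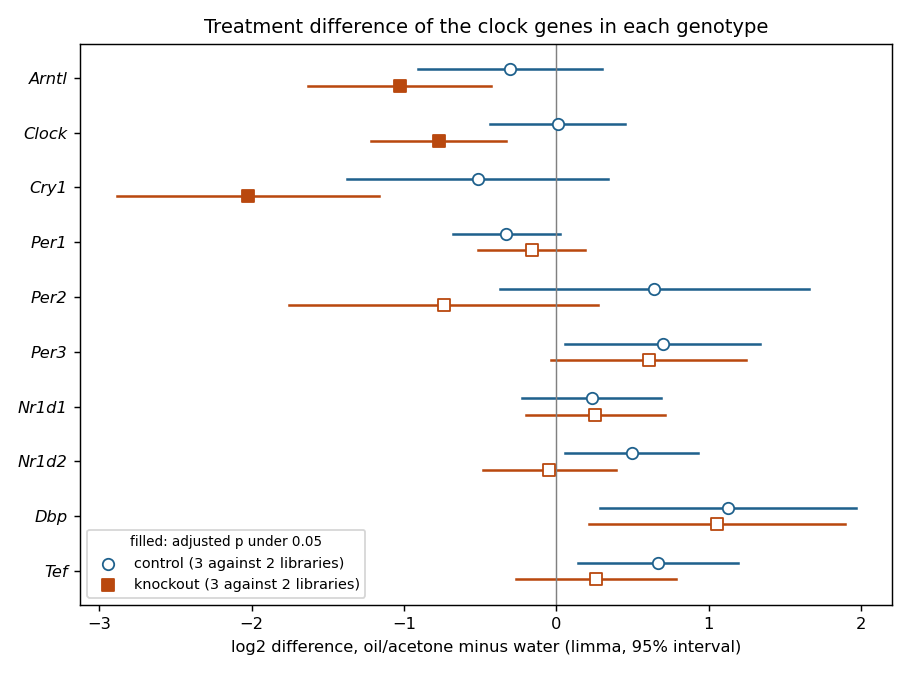
Log2 difference of olive oil/acetone minus water (horizontal axis, limma estimate with its 95% interval) for the 10 clock genes in control (circles) and knockout (squares); filled symbols have an adjusted p under 0.05. Only the knockout values of Cry1 (-2.02), Arntl (-1.03) and Clock (-0.77) are filled, and the control intervals of these 3 genes include 0.

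The difference between the 2 treatment responses was tested as an interaction, and 0 of the 10 genes passed the limma test (0% of all genes), with 0 by edgeR and 0 by DESeq2. At an unadjusted limma p under 0.05 there were 2, against 11.9% of all genes. The estimates were -1.51 ± 0.55 for Cry1 (adjusted p = 0.375), -0.78 ± 0.28 for Clock (adjusted p = 0.375), -0.72 ± 0.38 for Arntl (adjusted p = 0.455) and -1.38 ± 0.65 for Per2 (adjusted p = 0.423). Per2 passed only without control water replicate 1 (-2.42, adjusted p = 0.0331). The calls in knockout alone therefore do not show a response that differed from control. Control and knockout share no libraries in the treatment comparisons, and the treatment difference had the same sign in both for 7 of the 10 genes, against 68.5% of all genes.

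Averaged over both genotypes, the treatment comparison called Cry1 and Arntl lower and Dbp higher under olive oil/acetone, 3 of 10 against 12.8% of all genes. The log2 differences were -1.27 ± 0.27 for Cry1 (limma adjusted p = 0.0224), -0.67 ± 0.19 for Arntl (adjusted p = 0.0478) and 1.09 ± 0.27 for Dbp (adjusted p = 0.0322), the last a ratio of 2.13. All 3 calls ended without either knockout water library, knockout olive oil/acetone replicate 3 or control olive oil/acetone replicate 2. Those of Arntl and Dbp also ended without knockout olive oil/acetone replicate 2 or control olive oil/acetone replicate 3, those of Cry1 and Arntl without control water replicate 1, and that of Arntl with edgeR (0.0516; 0.0141 to 0.179 over its alternatives). Over their alternatives the adjusted p ran from 0.000433 to 0.101 for Cry1 and from 0.00232 to 0.138 for Dbp. Per3 (0.65 ± 0.20, adjusted p = 0.0576), Tef (0.46 ± 0.17, adjusted p = 0.0827) and Clock (-0.38 ± 0.14, adjusted p = 0.0885) did not pass, and Per1, Per2, Nr1d1 and Nr1d2 had adjusted p of 0.148 to 0.927. Markers of other cells moved here too: 5 of 5 red blood cell genes and 2 of 4 suprabasal genes rose, and 3 of 4 skeletal muscle genes, 1 of 4 epidermal T cell genes and 1 of 5 fibroblast genes fell, their part in the clock calls again not being tested.

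The reads of Dbp carry a limit of their own. Its exons share 539 bases with Sphk2 on the opposite strand, and the library kit does not mark strand, so reads there cannot be told apart. Sphk2 had log2 differences of -0.17 in control and -0.19 in knockout (adjusted p = 0.729 and 0.487), opposite in sign to those of Dbp. Nr1d1 shares 263 exonic bases with Thra, Tef 193 with Gm17597 and Arntl 33 with Gm45355, all on the opposite strand.

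Arntl and Dbp, which normally peak at different times of day, were set against each other within each library. The ratio of the Dbp to the Arntl level was 0.285 and 0.165 in control water libraries and 0.139 and 0.244 in knockout water libraries. It was 0.329, 0.579 and 1.05 in control and 0.438, 1.11 and 0.983 in knockout under olive oil/acetone. Every olive oil/acetone library thus lay above every water library in either genotype, while the genotypes overlapped under each treatment. A wider summary, which holds Dbp and Arntl again, gave the same order of treatments: the mean log2 level of Per1, Per2, Per3, Nr1d1, Nr1d2, Dbp and Tef minus that of Arntl, Clock and Npas2, each centred on its mean over libraries, was 0.057 to 0.888 under olive oil/acetone and -0.876 to -0.461 under water. The first mean alone overlapped between treatments in control (0.082, 0.251 and 0.492 against 0.098 and -0.558 under water). It also overlapped in knockout (-0.098, -0.020 and 0.111 against -0.268 and -0.090). The second overlapped in control (0.004, 0.107 and -0.164 against 0.559 and 0.041) but not in knockout (-0.155, -0.908 and -0.715 against 0.608 and 0.623). These are descriptions without a test.

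**Figure D3:**
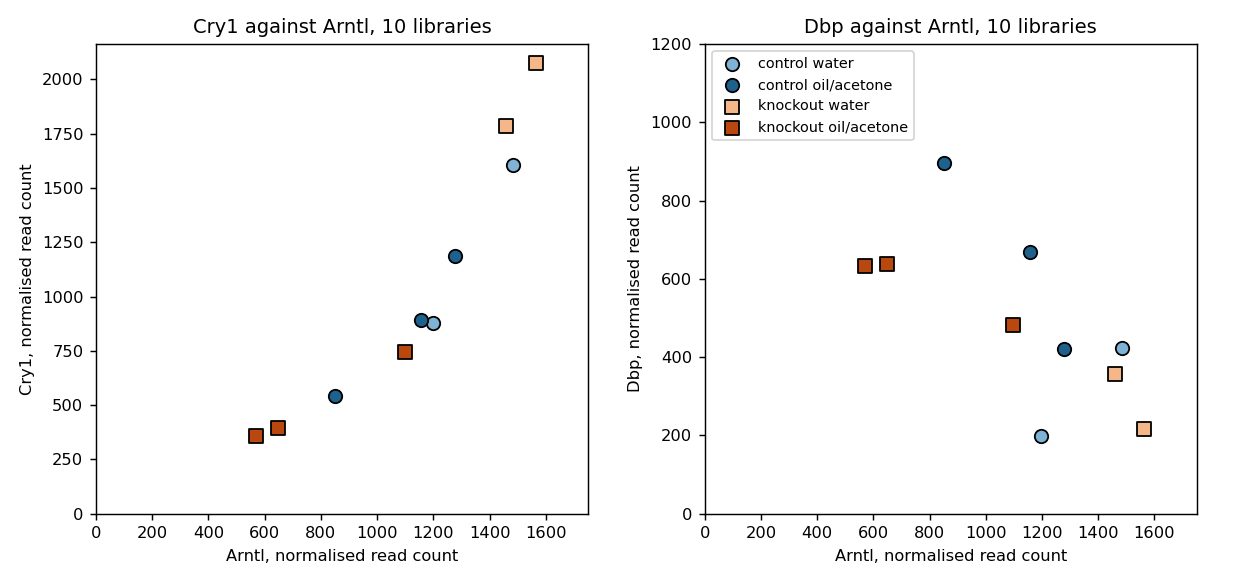
Level of Cry1 (left) and Dbp (right) against that of Arntl, as normalised read counts, with 1 point per library and colours for the 4 groups. Cry1 rises with Arntl across all groups (r = 0.968, computed on log2 levels). Knockout olive oil/acetone replicates 2 and 3 combine the lowest Arntl levels (569 and 649) with Dbp levels of 633 and 638.

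Correlations of log2 levels were computed for the 45 pairs of the 10 genes over the 10 libraries, which share the group differences described above. Arntl and Cry1 went together most closely, with r = 0.968 and rho = 0.976 (permutation p = 1e-05, the smallest that 100000 resamples can give, and 3e-05; adjusted over 45 pairs 0.00045 and 0.00135). Without the 2 libraries farthest from the median of Arntl r was 0.972, within the 6 olive oil/acetone libraries it was 0.98, and for deviations from the group means it was 0.945. After adjustment 7 of the 45 pairs passed by r and 5 by rho over the 10 libraries, and 0 within the 6 olive oil/acetone libraries. Of the 7, Per2 and Nr1d2 (r = 0.834, adjusted permutation p = 0.0433) did not pass by rho (0.588, adjusted permutation p = 0.251). Their r was 0.278 without the 2 libraries farthest from the median of Per2, and 0.925 for deviations. With 6 libraries the smallest permutation p is 0.00139 for r and 0.00278 for rho. Arntl and Cry1 reached both (rho = 1.0), and these adjusted to 0.0625 and 0.125. No single pair could therefore pass there, and the count of 0 says nothing of the strength of the correlations. Clock and Cry1 had r = 0.904 and rho = 0.891 (permutation p = 0.00027 and 0.00106; adjusted 0.0048 and 0.0238), 0.855 without the 2 libraries farthest from the median of Clock and 0.748 for deviations. Dbp and Tef had r = 0.905 and rho = 0.83 (permutation p = 0.00032 and 0.0046; adjusted 0.0048 and 0.0414), 0.824 without the 2 farthest libraries, 0.866 within olive oil/acetone and 0.895 for deviations. Arntl and Dbp ran in opposite directions with r = -0.645 and rho = -0.697 (permutation p = 0.0459 and 0.0307), which did not hold after adjustment (0.172 and 0.138); r was -0.684 without the 2 farthest libraries, -0.475 within olive oil/acetone and -0.373 for deviations from the group means. The 4 water libraries are too few for a value of their own.

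Among 11955 genes with a mean level of 50 or more, the 5 outside the 10 whose log2 levels followed Arntl most closely over the 10 libraries were Ccdc6, Zbtb4, Hivep1, Rnf217 and Ptpn23 (r = 0.983 to 0.988), and Cry1 ranked 83rd. For Dbp they were Emc1, Hspb6, Aplf, Washc5 and Ints2 (r = 0.909 to 0.937), and Tef ranked 9th.

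Knockout and control were then compared under each treatment. Under olive oil/acetone all 10 log2 differences were below 0 in knockout, from -0.81 for Cry1 to -0.11 for Per1, with a median of -0.31 against 0.016 for all genes. None passed the limma test (0 of 10, and 0% of all genes), edgeR and DESeq2 called 0 of 10, and 3 (Arntl, Clock and Cry1) had an unadjusted p under 0.05, against 12% of all genes. The groups did not overlap for Clock, Per2 and Nr1d2, 3 of 10 against 16.8% of all genes. Clock was 1695, 1779 and 1440 in control and 1386, 1005 and 1368 in knockout (-0.40 ± 0.18, adjusted p = 0.418), and Nr1d2, a REV-ERB repressor of Arntl, was 2296, 2458 and 2478 in control and 2088, 1857 and 2030 in knockout (-0.28 ± 0.18, adjusted p = 0.541). The negative direction did not hold for Dbp, Tef and Per3 without single libraries, control olive oil/acetone replicate 3 for Dbp (0.13) and Tef (0.012), and knockout olive oil/acetone replicate 1 for all 3 (0.00076 to 0.040). This comparison shares its knockout libraries with the treatment comparison in knockout.

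Under water 0 of 10 genes passed (0% of all genes; lowest adjusted p = 0.963), and edgeR and DESeq2 called 0. None had an unadjusted limma p under 0.05, against 4.98% of all genes. Differences ran from -0.36 ± 0.23 for Nr1d1 to 0.71 ± 0.50 for Per2, which was -0.33 without control water replicate 2. Cry1 was 1606 and 881 in control and 2077 and 1786 in knockout (0.70 ± 0.42), and Clock 1941 and 1354 against 2055 and 2180 (0.38 ± 0.22), both higher in knockout without overlap. Per1 (10578 and 9558 against 7715 and 8877) and Nr1d1 (3108 and 4455 against 3023 and 2771) were lower in knockout without overlap, so that 4 of 10 genes did not overlap, against 34.7% of all genes. Averaged over both treatments, 0 of 10 genes differed between genotypes (0.00627% of all genes; edgeR 0, DESeq2 0). Only Nr1d1 had an unadjusted p under 0.05 (-0.35 ± 0.15, limma adjusted p = 0.9996), against 3.35% of all genes. The 95% intervals of the genotype difference were -0.61 to 0.24 for Arntl, -0.32 to 0.31 for Clock, -0.67 to 0.55 for Cry1 and -0.68 to 0.50 for Dbp.

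The other core clock genes were read beside the 10. Of 9 (Npas2, Cry2, Rora, Nfil3, Hlf, Bhlhe40, Bhlhe41, Ciart and Arntl2), 1 fell and 0 rose in knockout, 2 fell over both genotypes and none passed limma in control, where 13.4%, 12.8% and 0.0627% of all genes were called. Npas2, a stand-in for CLOCK, was 322 and 336 under water and 139, 76.3 and 73.6 under olive oil/acetone in knockout, and 325 and 196 against 135, 177 and 169 in control. Its libraries did not overlap between treatments in either genotype. The treatments did not overlap for 5 of the 9 genes in knockout and 4 of the 9 in control, against 57.9% and 24.2% of all genes. Npas2 fell by 1.83 on the log2 scale in knockout (limma adjusted p = 0.0144) and by 1.24 over both genotypes (0.0131). Nfil3 encodes a repressor that competes with DBP and TEF for the D-box. It was 2264 and 1982 under water and 1353, 909 and 636 under olive oil/acetone in control, and 1701 and 1894 against 1375, 972 and 964 in knockout, also without overlap, and fell by 0.96 over both genotypes (adjusted p = 0.0186). In control alone its limma adjusted p was 0.172, and DESeq2 called it (adjusted p = 0.0169). Cry2, the other CRY gene, had a log2 difference of -0.96 in knockout (adjusted p = 0.0551).

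**Figure D4:**
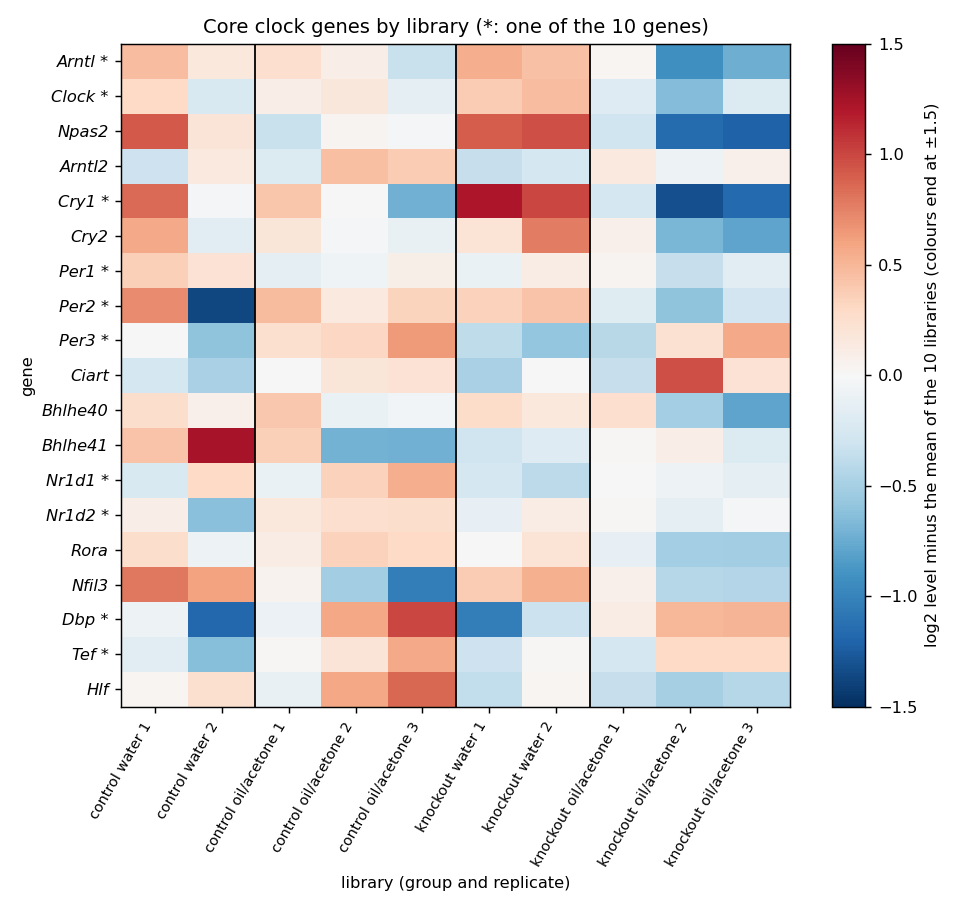
Log2 level of 19 core clock genes (rows; an asterisk marks the 10 genes) in each library (columns, by group and replicate), as the difference from the gene's mean over the 10 libraries; red is higher, blue lower, and colours end at 1.5 either way. Arntl, Npas2 and Cry1 are red in both knockout water libraries and blue in knockout olive oil/acetone replicates 2 and 3. Dbp is below its mean in all 4 water libraries, only slightly in control water replicate 1 (-0.079), and also in control olive oil/acetone replicate 1 (-0.088).

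Among 12 kinases, ubiquitin ligases and cofactors of clock proteins, 11 were tested, and 1 rose and 1 fell both in knockout and over both genotypes, with 0 in control, against the same 13.4%, 12.8% and 0.0627% of all genes. Usp2, a deubiquitinase of clock proteins, was 632 and 620 under water and 320, 289 and 226 under olive oil/acetone in knockout (-1.18, limma adjusted p = 0.0223; over both genotypes -0.67, adjusted p = 0.0398). Timeless, which also acts at replication forks, was 99.7 and 105 under water and 320, 301 and 448 under olive oil/acetone in knockout (1.77, adjusted p = 0.0295; over both genotypes 1.25, adjusted p = 0.0309). The casein kinase genes Csnk1d and Csnk1e, whose products phosphorylate PER proteins, had log2 differences of -0.02 and -0.13 in knockout (adjusted p = 0.931 and 0.62).

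Of 9 clock-controlled output genes, Aqp3 rose and Klf9 and Wee1 fell in knockout, and Aqp3 alone passed over both genotypes, 3 of 9 against 13.4% and 1 of 9 against 12.8% of all genes. Aqp3, the water and glycerol channel of the epidermis, was 6165 and 7388 under water and 18357, 14858 and 14410 under olive oil/acetone in knockout (1.23, limma adjusted p = 0.018), and 4945 and 6327 against 15397, 15750 and 9209 in control (1.22, limma adjusted p = 0.108), where DESeq2 (adjusted p = 0.000609) and the fit with the replicate block (0.0271) called it. Over both genotypes it rose by 1.22 (adjusted p = 0.00512), a call kept in all 18 alternatives run. Klf9, a Krüppel-like factor, differed by -1.11 (adjusted p = 0.041), and Wee1, a kinase that delays entry into mitosis, by -0.93 (adjusted p = 0.0427), and edgeR called neither. Klf9 was also the 1 of 6 glucocorticoid-responsive genes that fell in knockout (13.4% of all genes called). Of 10 immediate early and dissociation stress genes, which cell isolation can raise, 0 passed in knockout (lowest adjusted p = 0.0564) or in control (0.645). At an unadjusted limma p under 0.05 there were 5 and 0, against 35% and 12.9% of all genes.

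Single libraries decided these calls as well. In knockout those of Npas2, Usp2, Timeless, Klf9, Wee1 and Aqp3 were all lost without olive oil/acetone replicate 3 or without either water library, those of Usp2, Timeless, Klf9 and Wee1 without olive oil/acetone replicate 2, and those of Timeless, Klf9 and Wee1 without control olive oil/acetone replicate 2. Over both genotypes the calls of Npas2, Nfil3, Usp2 and Timeless were lost without control water replicate 1 or either knockout water library. Those of Nfil3, Usp2 and Timeless were also lost without control olive oil/acetone replicate 2, and those of Usp2 and Timeless without knockout olive oil/acetone replicate 2 or 3 or the third control olive oil/acetone library.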

How the data were processed

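RNA sequencing of 10 libraries was analysed. The deposited values are a signal per gene, normalised read counts per the labels. Per the submitters' processing notes, the authors used Trimmomatic 0.38, featureCounts 2.0.0 and DESeq2 1.26.0 with GRCm38 (mm10); aligner, annotation release and strand setting: not given in the sources used here. In each library 100% of values were whole multiples of 1 step (tolerance 0.1 read), which recovered whole reads. Of 17983 gene identifiers, 17974 matched GENCODE vM21.

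Values were divided by median-of-ratios factors. limma 3.58.1 (lmFit, contrasts.fit, eBayes with trend, R 4.3.3, two-sided) was fitted on log2(value + 1), which understates changes of low genes, with 10 libraries and 4 group means. It covered 15958 of the 15987 genes listed in all files (at least 2 libraries at 10 or above), with Benjamini-Hochberg adjustment and a threshold of 0.05. All adjusted p-values are limma's unless another tool is named. edgeR 4.0.16 and DESeq2 1.42.0 on recovered reads, other scalings, pseudocount 5, no filter, fits on 2 groups, a replicate block and leaving out each library were alternatives. The fit was tested on simulated data. The 10 genes, the lists and the rule for named genes (all members, any listed gene, the 5 genes most like Arntl and Dbp) were chosen with earlier results of these data known. One listed gene is not reported here.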

Additional observations from a re-analysis of the deposited data

How the results depend on the processing

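Each comparison was repeated under 18 to 20 alternatives. The number of clock genes called for treatment in knockout (3) was 5 with genes listed in both groups or with only the 2 groups fitted, alternatives that exist for the pairwise comparisons alone, and 0 to 5 when a library was left out. For treatment over both genotypes (3) it was 0 to 5 when a library was left out, and for the interaction (0) it was 0 to 1. The fit left with 1 library in a group assumes that this library varies like the others. With the replicate block these counts were 3, 2 and 0, and Dbp over both genotypes was not called (0.93, limma adjusted p = 0.0547). Libraries of the same number did not all deviate together (r = -0.10 to 0.45), so the numbers were not taken as pairs. Most of these r were above 0, however. In every group replicate 1 had the highest level of both Arntl and Cry1. What the libraries of 1 number may share was not tested. Setting library totals equal moved the median log2 difference of all genes by 0.12 in knockout and by 0.16 in the interaction.

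Directions changed only in small or unsteady differences. In control, Clock was -0.028 with equal totals, -0.012 with edgeR, -0.0084 with DESeq2 and -0.25 to 0.27 without single libraries. There Per2 was -0.39 to 1.68, Nr1d1 -0.029 to 0.49, Timeless -0.047 to 1.49 and Usp2 -0.60 to 0.28 without single libraries. In knockout, Nr1d2 was 0.079 with equal totals and -0.16 to 0.071 without single libraries. Between genotypes under olive oil/acetone, Per3 was -0.50 to 0.00076, Dbp -0.42 to 0.13 and Tef -0.27 to 0.040, and under water Per2 was -0.33 to 1.75. Per2 over both genotypes was -0.57 to 0.47. The cause of these changes was not tested. Among the 10 clock genes the fewest reads behind a value are 116 (Per2, control water replicate 2); Npas2 goes down to 78 and Timeless to 86.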
